A study of Mus musculus with 4 samples.

Results

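The acute-phase and calprotectin genes described here are Saa3, S100a8, S100a9, Wfdc21, Hp, Orm1 and Orm2, which are 7 of the 32285 genes counted in the series. They were found by exact symbol in the deposited gene lists, 1 row each. They had been picked with their levels in these same libraries in view, so every level below is a description. The libraries are single-cell RNA sequencing of glia-enriched brain suspensions from mice whose own Apoe gene was replaced by a human allele, APOE4 or APOE3. The 4 groups were APOE4 mice given bacterial lipopolysaccharide (LPS), APOE4 mice given NaCl, APOE3 mice given LPS and APOE3 mice given NaCl. LPS was injected into the peritoneum at 5 mg/kg and the brains were taken 24 h later. Each group is 1 library pooled from 3 mice, and no cell can be assigned to a mouse, so no spread between animals could be measured and no p-value is given. All groups carry a human allele in every cell, with no mouse of unmodified Apoe among them, and the labels give no age for them.

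The acute-phase response is the change in secreted proteins that follows infection or injury. Cytokines such as interleukin 6 and interleukin 1 act through STAT3, C/EBP and NF-kB factors on liver cells, and the liver then fills the plasma with serum amyloid A, haptoglobin and orosomucoids. Saa3 is a serum amyloid A gene of the mouse that is used mainly outside the liver, in macrophages, fat and epithelia. S100A8 and S100A9 bind each other to form calprotectin, an abundant protein of neutrophil cytosol that withholds zinc and manganese from microbes and is a ligand of the receptors TLR4 and RAGE. Neutrophils and monocytes bring this protein into inflamed tissue, and the resting brain holds few of either.

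The APOE4 LPS library stood apart from the others. It held 29361 barcodes against 14122, 16078 and 15432 in the APOE4 NaCl, APOE3 LPS and APOE3 NaCl libraries, with 88460913, 73288965, 114378032 and 78513245 unique molecular identifiers (UMIs, counted RNA molecules) in the same order of groups. Of its barcodes 37.5% held under 1000 UMIs, against 4.53% to 5.62% in the others. After filters, 18182, 12032, 13765 and 13013 cells were kept, and doublets called by Scrublet were removed from 3 libraries, while the caller marked 0 of 18182 in APOE4 LPS and had not worked there. Pairs of libraries shared 61 to 140 barcode sequences. Cells were grouped into 31 clusters with the 7 genes left out of the clustering, and a class name such as microglia means cells like microglia by their markers. Unnamed clusters held 37.0% of the cells kept in APOE4 LPS, 0.0748% in APOE4 NaCl, 3.02% in APOE3 LPS and 0.161% in APOE3 NaCl. Levels are a gene's UMIs scaled by all UMIs of the same class, as CPM. Because these are counts of 3′ tags, a level carries no term for transcript length. Intervals in parentheses are exact 95% intervals and cover counting error only. The labels call the suspensions non-neuronal, yet 886 and 349 cells with neuronal markers were kept in the APOE4 LPS and APOE3 LPS libraries.

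The genes lie at 5 places in the mouse genome (GRCm38, GENCODE vM21). The calprotectin genes are neighbours on chromosome 3, with S100a8 at chr3:90668978-90670035 on the plus strand and S100a9 at chr3:90692632-90695721 on the minus strand, 22596 bases apart. Orm1 (chr4:63344560-63348163) and Orm2 (chr4:63362449-63365878) lie on the plus strand of chromosome 4, 14285 bases apart, with Orm3 between them. Saa3 is at chr7:46711998-46715700 on the minus strand, Hp at chr8:109575128-109579172 on the minus strand and Wfdc21 at chr11:83746940-83752642 on the plus strand. The 250 bases before the RefSeq start are shown for Saa3, S100a8, S100a9 and Orm2, the members with a match among the promoters used. They are given 5′ to 3′ on the gene's strand from RefSeq's promoters of GRCm38.p6, and 4 of the 7 genes were matched in that table. Capitals mark matches on either strand to TTNNGNAA, the core form of C/EBP sites, or to TATAAA, the TATA box. The windows are chr7:46715677-46715926, chr3:90668821-90669070, chr3:90695722-90695971 and chr4:63362199-63362448, in the order of the lines.
Saa3: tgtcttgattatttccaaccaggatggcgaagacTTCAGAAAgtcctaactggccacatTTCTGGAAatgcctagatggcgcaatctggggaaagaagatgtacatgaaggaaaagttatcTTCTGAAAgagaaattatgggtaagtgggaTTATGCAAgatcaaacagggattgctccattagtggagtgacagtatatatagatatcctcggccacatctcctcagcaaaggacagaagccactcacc
S100a8: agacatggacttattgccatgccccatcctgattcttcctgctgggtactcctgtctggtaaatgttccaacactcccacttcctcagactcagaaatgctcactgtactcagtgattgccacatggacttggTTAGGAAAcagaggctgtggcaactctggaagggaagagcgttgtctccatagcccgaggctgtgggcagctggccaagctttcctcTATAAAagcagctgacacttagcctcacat
S100a9: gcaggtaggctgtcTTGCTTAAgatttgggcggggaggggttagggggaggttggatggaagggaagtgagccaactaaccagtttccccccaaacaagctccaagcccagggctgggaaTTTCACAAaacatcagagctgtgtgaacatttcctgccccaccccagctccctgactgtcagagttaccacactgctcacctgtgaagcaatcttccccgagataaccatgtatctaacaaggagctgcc
Orm2: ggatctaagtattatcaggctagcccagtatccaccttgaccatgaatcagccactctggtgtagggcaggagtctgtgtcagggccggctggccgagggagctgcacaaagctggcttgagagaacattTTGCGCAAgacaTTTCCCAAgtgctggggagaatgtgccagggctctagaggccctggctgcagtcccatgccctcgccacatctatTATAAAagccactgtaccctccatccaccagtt
Saa3 held 4 matches to the C/EBP form, S100a9 and Orm2 held 2 each and S100a8 held 1, while S100a8 and Orm2 each held 1 TATA match. Of 32851 promoter windows of the same length, 36.8% held the C/EBP form and 12.4% the TATA form. The NF-kB form GGGNNNNNCC, which 45.8% of the windows held, was not among the letters of these 4. The matches are letters in a window and were not measured as sites. The RefSeq and GENCODE starts differ, so that 24 bases of the Saa3 window and 93 of the S100a8 window fall inside the GENCODE gene.

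Across all kept cells, Saa3 had the widest ratio of LPS to NaCl among the members with UMIs in both. Saa3 had 382265 UMIs (4775 CPM) in APOE4 LPS and 9 UMIs (0.145 CPM) in APOE4 NaCl, a 32831-fold ratio (95% interval 17295 to 71799). In the APOE3 libraries it had 93931 UMIs (992 CPM) with LPS and 27 (0.422 CPM) with NaCl, a 2348-fold ratio (1613 to 3562). Both LPS libraries were far above both NaCl libraries, and APOE4 LPS was 4.82-fold above APOE3 LPS (4.78 to 4.85).

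The calprotectin genes ordered the libraries differently from Saa3. S100a8 stood at 240, 93.7, 499 and 7.74 CPM in APOE4 LPS, APOE4 NaCl, APOE3 LPS and APOE3 NaCl, from 19196, 5797, 47286 and 495 UMIs. S100a9 stood at 176, 112, 577 and 9.26 CPM in the same order of libraries. Both were highest in APOE3 LPS, and APOE4 LPS was at 0.480 times its level for S100a8 (0.472 to 0.489) and 0.306 times for S100a9 (0.300 to 0.311). The LPS to NaCl ratio of S100a8 was 2.56 (2.49 to 2.64) in APOE4 and 64.5 (59.0 to 70.6) in APOE3, and that of S100a9 was 1.58 (1.54 to 1.63) and 62.3 (57.5 to 67.7).

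The NaCl values behind those ratios rest on very few cells. In the APOE3 NaCl library the removed doublets held 1347 of 1844 S100a8 UMIs (73.0%), and 1 barcode among them held 1343. The same holds for S100a9, with 1552 of 2149 UMIs in 1 removed barcode, and for Wfdc21, with 63 of 71. Over all deposited barcodes, with no filter and no doublet removal, the APOE3 ratio of LPS to NaCl was 20.04 for S100a8 (19.1 to 21.0), 20.1 for S100a9 (19.3 to 21.0) and 28.2 for Wfdc21 (22.3 to 36.2). In the APOE4 pair the same count gave 3.14 for S100a8 and 2.04 (1.99 to 2.10) for S100a9. Between APOE4 NaCl and APOE3 NaCl, S100a8 was 12.1-fold higher in APOE4 among kept cells and 3.48-fold higher over all barcodes (3.30 to 3.66). Saa3 moved less with this choice, at 34395-fold in APOE4 (18703 to 71727) and 2774-fold in APOE3 (1932 to 4143). The count over all barcodes was added after the data had been seen.

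The remaining 4 genes were lower in level and also higher with LPS. Wfdc21, a small secreted protein with a whey acidic protein (WAP) domain, had 38.8, 4.90, 26.3 and 0.110 CPM in APOE4 LPS, APOE4 NaCl, APOE3 LPS and APOE3 NaCl. Its LPS to NaCl ratios were 7.92 (7.03 to 8.94) and 241 (117 to 599) in APOE4 and APOE3. Hp, haptoglobin, which captures free haemoglobin for uptake by CD163, had 15.2, 2.80, 14.8 and 1.56 CPM, with ratios of 5.43 (4.63 to 6.40) and 9.49 (7.74 to 11.7). The APOE4 LPS and APOE3 LPS levels of Hp had a ratio of 1.02 (0.946 to 1.10), which spans equality.
Orm1 and Orm2 encode orosomucoids, plasma carriers of small lipophilic molecules. Orm1 had 193 UMIs in APOE4 LPS and 90 in APOE3 LPS, against 0 in both NaCl libraries, so it was at least 49.7-fold higher in APOE4 and at least 20.2-fold higher in APOE3, taking 3 counts per library as the floor. Orm2 had 214, 1, 29 and 7 UMIs in APOE4 LPS, APOE4 NaCl, APOE3 LPS and APOE3 NaCl, with LPS to NaCl ratios of 165 (29.4 to 6564) and 2.80 (1.20 to 7.56). Orm2 was 8.73-fold higher in APOE4 LPS than in APOE3 LPS (5.91 to 13.4), the widest ratio of the 7 genes between those libraries.

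Of the 7 genes, 6 were at least 2-fold higher with LPS in APOE4, where 7.4% of all measured genes were, and S100a9 was the exception among kept cells. In APOE3 all 7 were, against 5.94% of genes. Over all deposited barcodes S100a9 in APOE4 was 2.04-fold higher with LPS (1.99 to 2.10), which passes 2-fold with an interval that spans it. Between APOE4 LPS and APOE3 LPS, 3 were at least 2-fold higher (2.97% of genes) and 2, S100a8 and S100a9, lower (2.44% of genes). Over all deposited barcodes S100a8 stood at 0.544 times the APOE3 LPS level (0.535 to 0.552), which is no longer 2-fold lower, and S100a9 at 0.360 times. Between APOE4 NaCl and APOE3 NaCl, 5 were measured, of which 3 were at least 2-fold higher (2.44% of genes) and 1, Saa3, lower (2.91% of genes). A gene was measured when 1 of the libraries compared held at least 10 UMIs. The genes were chosen on these contrasts, so nothing is read from the counts. The median gene lay at -0.13 (APOE4) and -0.12 (APOE3) on the log2 scale between LPS and NaCl.

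**Figure D1:**
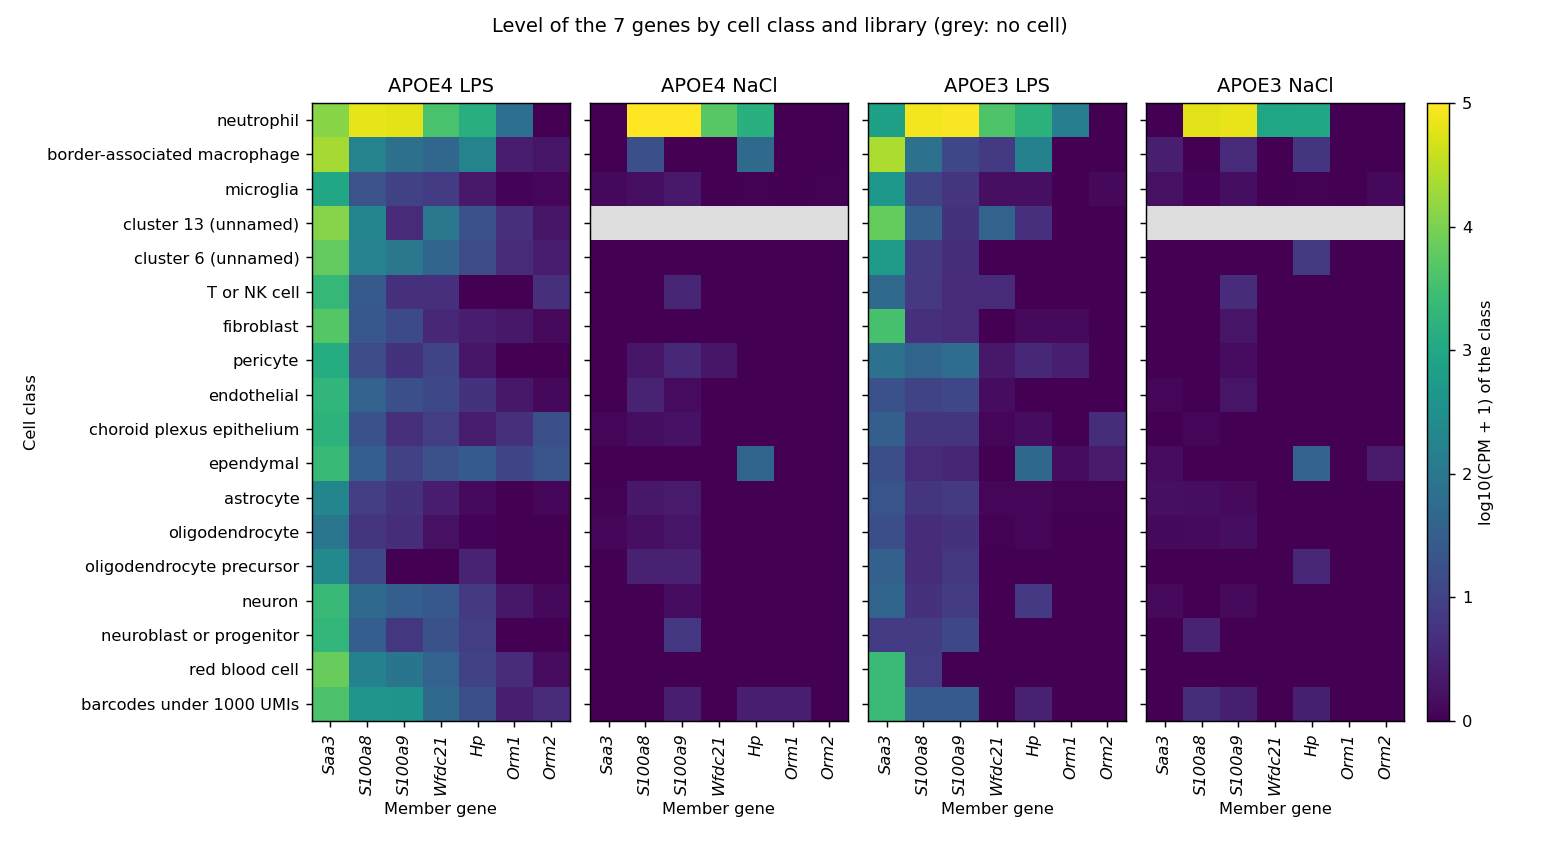
Level of each gene as log10(CPM + 1) for the 7 genes (columns) in 18 cell classes, clusters and barcodes under 1000 UMIs (rows), with 1 panel per library, brighter colour for a higher level and grey where a library held no such cell. S100a8 and S100a9 are brightest in neutrophils in all 4 libraries, and Saa3 is bright in macrophages, fibroblasts and cluster 13 of the LPS libraries, at 21314 and 24560 CPM in the macrophages of APOE4 and APOE3.

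Calprotectin transcripts were mostly neutrophil transcripts. The neutrophil class held 45 cells in APOE4 LPS, 14 in APOE4 NaCl, 114 in APOE3 LPS and 4 in APOE3 NaCl, which were 0.247%, 0.116%, 0.828% and 0.0307% of kept cells. These few cells held 66.1%, 99.07%, 97.9% and 96.6% of all S100a8 UMIs of kept cells and 85.3%, 99.06%, 98.6% and 94.9% of S100a9 UMIs in the same order. All 11 neutrophil markers were found in the class in both LPS libraries and in APOE4 NaCl. The class was not separate under 3 other settings (doublets kept, at most 10% mitochondrial UMIs, or Leiden resolution 2), where its cells joined a cluster named for monocytes.

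Within neutrophils the level was high with either injection. S100a8 stood at 65319, 96128, 81676 and 59093 CPM in APOE4 LPS, APOE4 NaCl, APOE3 LPS and APOE3 NaCl neutrophils. S100a9 stood at 61955, 114524, 95130 and 69477 CPM. Each gene was thus high in neutrophils with LPS and with NaCl, and over the 4 libraries its level within neutrophils varied less than the share of neutrophils among cells. The median neutrophil held 229, 259.5, 289.5 and 106.5 S100a8 UMIs in the same order, and the richest held 817, 1027, 1479 and 185. The APOE4 LPS to APOE3 LPS ratio in neutrophils was 0.7997 for S100a8 (0.784 to 0.816) and 0.651 for S100a9. Neutrophils in APOE4 LPS also held other cells' markers, with astrocyte markers at 1693 CPM against 471 CPM in APOE3 LPS, and their part in these ratios was not tested. With 45 and 114 cells from single pools, differences between mice were not measured.

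Outside neutrophils, S100a8 and S100a9 were not always counted in equal numbers. Cluster 13, an unnamed cluster, held 1510 cells in APOE4 LPS, 297 in APOE3 LPS and 0 with NaCl, and was led by Marco, Ccl5, Msr1, Postn and Aoah. UMIs of all 9 microglial markers were found in it, summed to 4242 CPM in APOE4 LPS and 6909 CPM in APOE3 LPS. Its best scores for naming were 1 of 8 markers for T or NK cells and 1 of 8 for border-associated macrophages. The presence of microglial markers is therefore not read as its identity. In this cluster S100a8 had 2691 UMIs against 42 UMIs of S100a9 in APOE4 LPS, a ratio of 64.1 (47.3 to 89.1). In APOE3 LPS it had 91 against 12, a ratio of 7.58 (4.14 to 15.2). Neutrophils of the same libraries had a ratio of 1.05 and 0.859, so the cluster's calprotectin transcripts were mostly of the S100a8 subunit. Border-associated macrophages had a ratio of 2.54 (2.09 to 3.11) in APOE4 LPS and 6.41 (4.07 to 10.6) in APOE3 LPS. In APOE3 LPS the excess of S100a8 was therefore not particular to cluster 13.

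Counted by cell, S100a9 was likewise rare in cluster 13. Of 1510 cluster 13 cells in APOE4 LPS, 665 held S100a8, 33 held S100a9 and 17 held both, which left 648 with S100a8 and no S100a9. In APOE3 LPS 53 of 297 cells held S100a8, 12 held S100a9 and 2 held both. All 45 neutrophils of APOE4 LPS held both genes. With S100a9 in so few cells, these counts do not show whether the genes avoid each other within cells. Of the APOE4 LPS cluster 13 cells, 497 held S100a8 together with Saa3.

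Free RNA is one source of such UMIs, and its makeup can be read from barcodes under 1000 UMIs, which are called the low-UMI pool here. All deposited barcodes held at least 500 UMIs, so the pool is not made of empty droplets only. In APOE4 LPS the pool had 3224 S100a8 and 3120 S100a9 UMIs, a ratio of 1.03 (0.983 to 1.09). The ratio was 1.41 (1.26 to 1.58) without its barcodes that held any neutrophil-marker UMI. Cluster 13 of APOE4 LPS, at 64.1, was above the pool in this ratio. Choroid plexus epithelium, at 4.59 (2.87 to 7.65), and neuroblasts or progenitors, at 5.67 (1.64 to 30.2), were also above it in that library. Neurons stood at 1.67 and oligodendrocytes at 1.45. A ratio away from that of the pool is therefore not read by itself as expression, and the part of free RNA in cluster 13 was not tested. The 11 neutrophil markers summed to 126 CPM in cluster 13 of APOE4 LPS and 253 CPM in that of APOE3 LPS, with Ly6g and Ltf at 0 in both. Microglia had 241 and 329 CPM of the same markers in those libraries. Among kept cells of APOE3 NaCl, 1217 held at least 2 such UMIs, against 4 cells in the neutrophil class. The summed markers are therefore not read as a measure of neutrophil RNA. In cluster 13 S100a8 was at 195 CPM (188 to 202) in APOE4 LPS and 32.7 CPM (26.3 to 40.1) in APOE3 LPS, a ratio of 5.96 (4.84 to 7.43), and S100a9 at 3.04 and 4.31 CPM, a ratio of 0.705 (0.365 to 1.47). The low-UMI pool itself held S100a8 at 403 CPM in APOE4 LPS and 25.7 CPM in APOE3 LPS, so cluster 13 stood at 48.4% (45.98 to 50.97) of the pool's level in APOE4 LPS and at 127% (72.2 to 242) in APOE3 LPS.

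S100a8 was found in other classes too. In microglia S100a8 had 18.3, 0.584, 9.64 and 0.136 CPM in APOE4 LPS, APOE4 NaCl, APOE3 LPS and APOE3 NaCl, at 2.26 times S100a9 by UMIs in APOE4 LPS and 1.97 times in APOE3 LPS. Border-associated macrophages, the macrophages of meninges, perivascular spaces and choroid plexus, had 173, 15.8, 72.5 and 0 CPM of S100a8, where the 15.8 came from 10 UMIs in 1 cell. In APOE3 LPS these macrophages, and pericytes at 40.3 CPM, stood above cluster 13. Those pericytes held 177 UMIs of S100a8 and 260 of S100a9, and 2 of 429 (0.466%) held S100a8 when thinned as below. S100a9 of the macrophages in APOE4 LPS came to 145 UMIs in 13 of 362 cells. Of these UMIs, 143 were in 11 cells that also carried at least 2 monocyte-marker UMIs. Thinned to 1000 UMIs per cell, 13.1% of cluster 13 cells in APOE4 LPS and 2.36% in APOE3 LPS held S100a8, against 0.765% and 0.259% of oligodendrocytes, a class that should lack the gene. Other classes that should lack it stood higher in APOE4 LPS, at 9.05% of red blood cells, 6.99% of neuroblasts or progenitors and 6.09% of neurons, and cluster 6 stood at 9.67%. The cluster 13 share in APOE4 LPS was thus above these by less than it was above oligodendrocytes. For S100a9 the same shares were 0.662% and 0.337% of cluster 13 cells, against 0.418% and 0.556% of oligodendrocytes, so no S100a9 in cluster 13 beyond the oligodendrocyte share is read from them. The median depth before thinning was 8510 and 8855 UMIs in cluster 13, against 5101 and 6023.5 in oligodendrocytes.

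**Figure D2:**
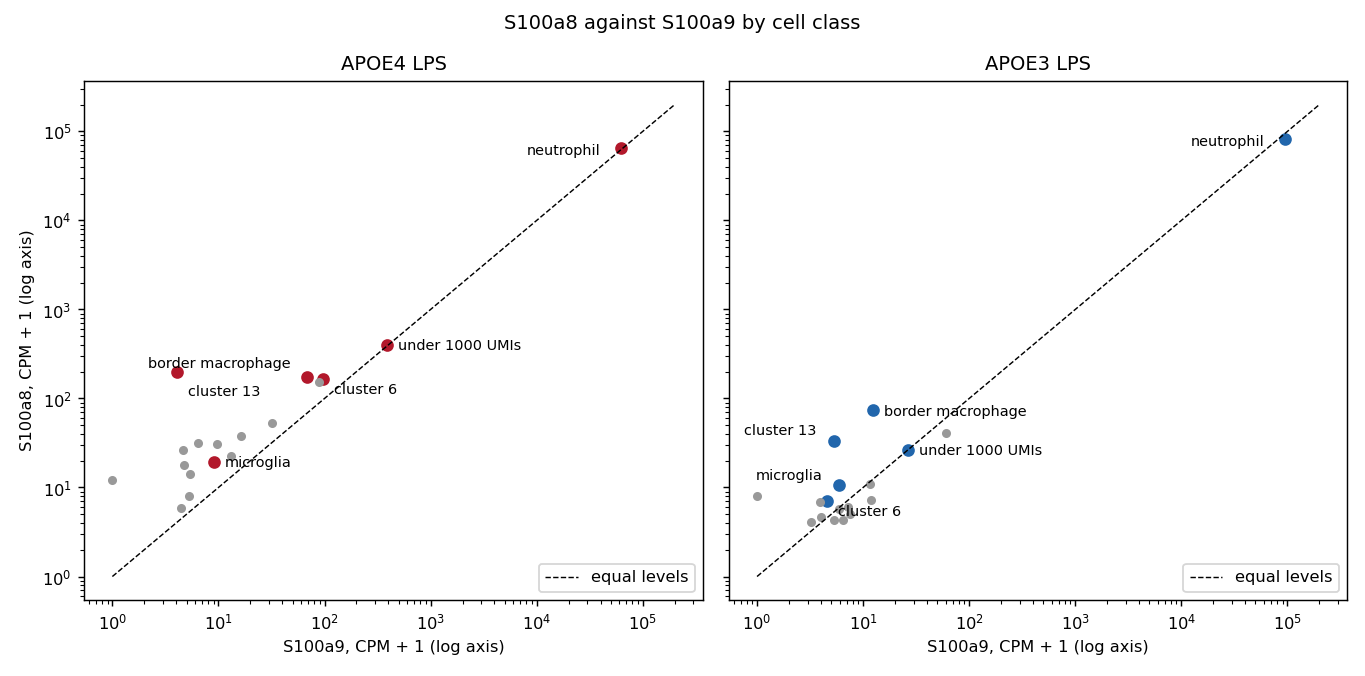
S100a8 level (vertical) against S100a9 level (horizontal), both as CPM + 1 on log axes, for each cell class (points) of the APOE4 LPS (left) and APOE3 LPS (right) libraries, with the low-UMI pool and a dashed line of equal levels. Neutrophils lie on the line, and cluster 13 lies far above it, with 2691 S100a8 UMIs to 42 S100a9 UMIs in APOE4 LPS and 91 to 12 in APOE3 LPS. Border-associated macrophages also lie above it, at 369 to 145 and 141 to 22 UMIs.

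Wfdc21 lay mostly in neutrophils in APOE3 LPS, and was spread over neutrophils, cluster 13 and cluster 6 in APOE4 LPS. In neutrophils it had 3735, 5055, 4135 and 865 CPM in APOE4 LPS, APOE4 NaCl, APOE3 LPS and APOE3 NaCl. Neutrophils held 23.4% of its kept UMIs in APOE4 LPS and 94.0% in APOE3 LPS, whereas cluster 13 held 42.3% and 4.21%. Cluster 6 held 560 of the 3103 kept UMIs of Wfdc21 in APOE4 LPS. In the low-UMI pool of that library, Wfdc21 made up 424 of 8008846 UMIs. In cluster 13 it had 1314 UMIs in 328 of 1510 cells (95.2 CPM) in APOE4 LPS and 105 UMIs in 24 of 297 cells (37.7 CPM) in APOE3 LPS, a ratio of 2.52 (2.07 to 3.11). Wfdc21 UMIs per S100a8 UMI came to 0.488 in cluster 13 of APOE4 LPS, 0.0572 in its neutrophils, 0.132 in its low-UMI pool and 0.379 (0.330 to 0.435) in that pool without the barcodes holding neutrophil markers. It was 0.560 in ependymal cells and 0.451 in neurons, with intervals that include the value of cluster 13. The proportion of the 2 genes thus differed between cluster 13 and neutrophils, and not beyond counting error between cluster 13 and these classes. After thinning, 6.49% of cluster 13 cells in APOE4 LPS and 2.02% in APOE3 LPS held it, against 0.0696% and 0% of oligodendrocytes. In APOE4 LPS the share was also 4.36% in cluster 6, 3.16% in neurons, 2.99% in red blood cells and 2.67% in ependymal cells, while in APOE3 LPS cluster 6, neurons and ependymal cells were at 0%. In microglia it had 6.78 and 0.593 CPM in the LPS libraries of APOE4 and APOE3, and 0 in both NaCl libraries.

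Saa3 was highest in border-associated macrophages, in both genotypes. It had 21314 CPM there in APOE4 LPS (45536 UMIs), 0 in APOE4 NaCl, 24560 CPM in APOE3 LPS (47754 UMIs) and 1.58 CPM in APOE3 NaCl, which was 1 UMI. The class was at least 4509-fold higher with LPS in APOE4, and in APOE3 the ratio was 15562 (2793 to 614695). Between the LPS libraries the APOE4 level was 0.868 times the APOE3 level (0.857 to 0.879), so these macrophages, which held 50.8% of Saa3 UMIs in APOE3 LPS and 11.9% in APOE4 LPS, did not carry the higher library level of APOE4. The class held monocyte markers too, at 1959, 953, 1914 and 226 CPM in APOE4 LPS, APOE4 NaCl, APOE3 LPS and APOE3 NaCl. In a split added after seeing the data, Saa3 stood at 8952 CPM in the 159 cells with at least 2 monocyte-marker UMIs and 38133 CPM in the other 203 cells of APOE4 LPS, and at 13726 and 37023 CPM in the 106 and 154 cells of APOE3 LPS. Saa3 was therefore higher in the cells with fewer monocyte markers in both libraries.

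Fibroblasts also held Saa3 in both LPS libraries. Saa3 stood at 4739 CPM in APOE4 LPS (12896 UMIs) and 3585 CPM in APOE3 LPS (10860 UMIs), against 0 UMIs in both NaCl libraries, which is at least 1482-fold and 1333-fold higher. The fibroblast ratio of APOE4 LPS to APOE3 LPS was 1.32 (1.29 to 1.36). Cluster 13 stood at 12615 CPM in APOE4 LPS (174195 UMIs) and 6514 CPM in APOE3 LPS (18129 UMIs), a ratio of 1.94 (1.91 to 1.97). With its cells counted, cluster 13 held 45.6% of all Saa3 UMIs in APOE4 LPS and 19.3% in APOE3 LPS. Cluster 6, an unnamed cluster of cells with a median of 1479.5 UMIs and 5201 of its cells in APOE4 LPS and 119 in APOE3 LPS, held a further 22.1% in APOE4 LPS. A cluster found mostly in 1 library may be a feature of that library.

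Microglia carried Saa3 in a minority of cells. The class had 986, 0.292, 456 and 0.682 CPM in APOE4 LPS, APOE4 NaCl, APOE3 LPS and APOE3 NaCl, from 8293, 4, 14621 and 10 UMIs. The LPS to NaCl ratio was 3378 (1319 to 12400) in APOE4 and 669 (364 to 1396) in APOE3, and APOE4 LPS was 2.16-fold above APOE3 LPS (2.10 to 2.22). The richest 10% of microglia held 94.6% of the class's Saa3 UMIs in APOE4 LPS and 98.8% in APOE3 LPS, and 3.60% and 3.23% of microglia held 20 or more. In border-associated macrophages 51.1% and 65.8% of cells held 20 or more, and in cluster 13 42.2% and 21.5%. High counts per cell were thus common in both LPS libraries among macrophages and uncommon among microglia.

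**Figure D3:**
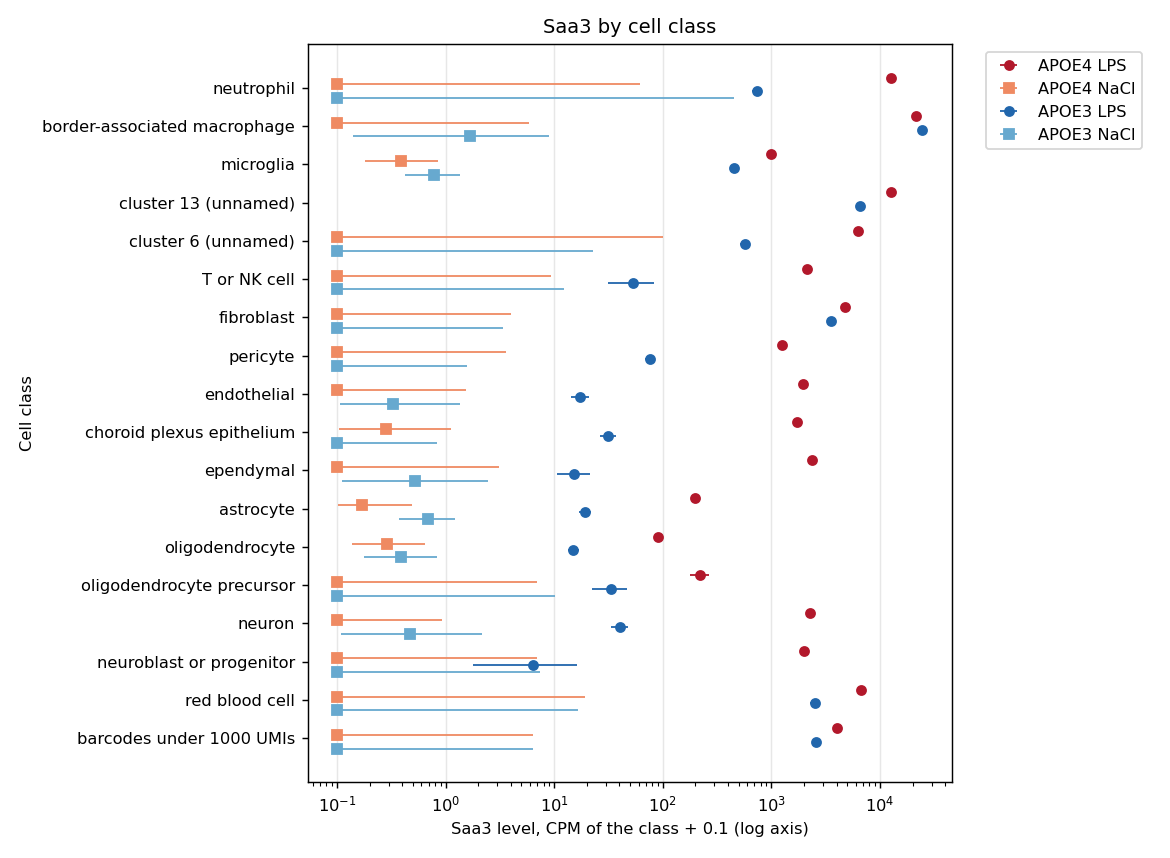
Saa3 level as CPM + 0.1 on a log axis by cell class (rows) in the 4 libraries (colours), with exact 95% counting intervals as bars. The LPS libraries meet in border-associated macrophages, at 21314 CPM in APOE4 and 24560 CPM in APOE3, and part in endothelial cells, at 1950 and 17.4 CPM.

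In several classes Saa3 was high only in APOE4 LPS of the 4 libraries. Endothelial cells had 1950, 0, 17.4 and 0.226 CPM in APOE4 LPS, APOE4 NaCl, APOE3 LPS and APOE3 NaCl, neurons 2289, 0, 40.1 and 0.370 CPM, and ependymal cells, which line the ventricles, 2394, 0, 15.2 and 0.426 CPM. The APOE4 LPS to APOE3 LPS ratios were 112 (92.7 to 137), 57.0 (47.6 to 69.0) and 158 (113 to 228) for these classes. Neutrophils were also higher in APOE4 LPS, at 12691 CPM, but held 734 CPM in APOE3 LPS, well above the classes just named. Of their 2467 UMIs in APOE4 LPS, 97.9% were in the richest 10% of the cells.

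The low-UMI pool of APOE4 LPS held Saa3 at 4038 CPM, and 59.1% of its barcodes had at least 1 Saa3 UMI, against 2611 CPM and 7.97% in APOE3 LPS. Endothelial Saa3 came to 48.3% of the pool's level in APOE4 LPS (47.1 to 49.6), ependymal to 59.3%, neuronal to 56.7% and choroid plexus to 43.0%. The summed markers of other cells were present in the same endothelial cells at 50.1% of the pool's level for microglia, 43.1% for astrocytes, 33.3% for neutrophils, 25.6% for oligodendrocytes, 24.8% for choroid plexus and 0.603% for red blood cells. Endothelial Saa3 in APOE4 LPS thus stood within the range of what these cells held of foreign markers, and its part that came from other cells or free RNA was not tested. Astrocytes, at 4.88% of the pool's level, and oligodendrocytes, at 2.25% (2.09 to 2.42), held less, so the pool's RNA was not spread evenly over the classes. Border-associated macrophages, cluster 13 and fibroblasts stood above the pool, at 528% (520 to 535), 312% and 117%. Neutrophils, cluster 6 and cells with red blood cell markers also did in APOE4 LPS. A level above the pool is therefore not read by itself as expression by a class. Cells with red blood cell markers, 1337 in APOE4 LPS and 16 in APOE3 LPS, held 6734 and 2538 CPM of Saa3.

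The share of cells with Saa3 did not follow the level in every class. Thinned to 1000 UMIs, 75.1% of border-associated macrophages held it in APOE4 LPS and 74.6% in APOE3 LPS, and 68.8% and 44.3% of fibroblasts did. In cluster 13 the shares were 54.9% and 25.6%, in microglia 16.3% and 6.44%, and in endothelial cells 38.9% and 2.17%. Fibroblasts thus stood above cluster 13 by share in both libraries and below it by level. Oligodendrocytes, set beside them as a class that should lack the gene, stood at 9.60% and 1.33%, and astrocytes at 13.9% and 2.25%. In APOE4 LPS other classes were as high as fibroblasts or cluster 13, with 68.8% of red blood cells, 66.4% of cluster 6, 57.7% of ependymal cells and 50.8% of neurons. In APOE3 LPS cluster 6 was at 5.88%, ependymal cells at 2.92% and neurons at 2.01%. The fibroblast and cluster 13 shares were therefore above those of these classes in APOE3 LPS, and in APOE4 LPS were not set apart from all of them. Unthinned, the shares were 84.3% and 81.5% of border-associated macrophages and 29.2% and 6.49% of oligodendrocytes, at median depths of 3162 and 6060.5 UMIs in the macrophages and 5101 and 6023.5 UMIs in the oligodendrocytes. From the APOE3 LPS shares of endothelial cells and astrocytes, which lay near the oligodendrocyte share, no expression in these classes is read.

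**Figure D4:**
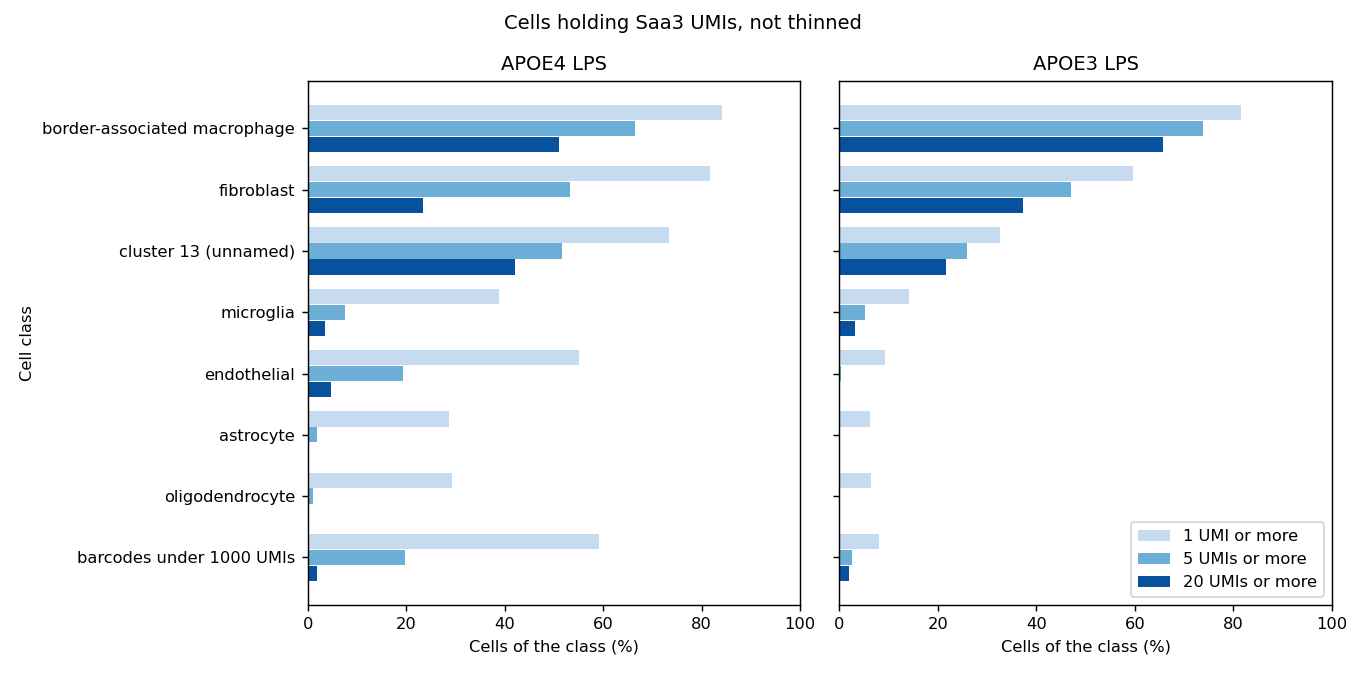
Percent of cells with at least 1, 5 or 20 Saa3 UMIs by class in the APOE4 LPS (left) and APOE3 LPS (right) libraries, before thinning. At 20 UMIs border-associated macrophages stay at 51.1% and 65.8% of cells, while endothelial cells, at 55.0% and 9.17% for 1 UMI, stand at 4.65% and 0%.

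Hp was found mainly in neutrophils, in the border-associated macrophage class and in ependymal cells. In APOE4 LPS cluster 13 held 19.2% of Hp UMIs at 16.9 CPM (14.8 to 19.2), against 3.95 CPM in APOE3 LPS. The low-UMI pool of APOE4 LPS was close to that level, at 15.5 CPM (12.9 to 18.5), and cluster 6 held 181 UMIs at 13.4 CPM. The cluster 13 level was thus not set apart from the pool. Neutrophils held 1384, 1490, 1629 and 989 CPM in APOE4 LPS, APOE4 NaCl, APOE3 LPS and APOE3 NaCl, from 269, 89, 924 and 8 UMIs. It was detected in 38 of 45, 14 of 14, 111 of 114 and 3 of 4 neutrophils, so it was present with both injections. Between the LPS libraries the neutrophil ratio of APOE4 to APOE3 was 0.849 (0.739 to 0.974).

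The border-associated macrophage class held 175, 53.6, 159 and 4.73 CPM of Hp in the same order of libraries. Its LPS to NaCl ratio was 3.27 (2.30 to 4.79) in APOE4 and 33.6 (11.4 to 164) in APOE3, the second resting on 3 NaCl UMIs. Between the LPS libraries APOE4 was 1.10 times APOE3 (0.945 to 1.28), an interval that spans equality. Its level was higher in the cells with monocyte markers, at 278 CPM with at least 2 such UMIs and 35.4 CPM in the others in APOE4 LPS, and 278 and 22.1 CPM in APOE3 LPS. In APOE4 NaCl the split gave 164 and 2.31 CPM, and in APOE3 NaCl 32.4 and 0 CPM. Hp and Saa3 thus lay on opposite sides of this class in the LPS libraries.

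Ependymal cells held Hp with either injection. They had 27.2, 39.6, 47.4 and 36.7 CPM in APOE4 LPS, APOE4 NaCl, APOE3 LPS and APOE3 NaCl, in 49 of 674, 28 of 133, 54 of 171 and 59 of 215 cells. The LPS to NaCl ratio was 0.685 (0.468 to 1.01) in APOE4 and 1.29 (0.963 to 1.74) in APOE3, and both intervals span equality. Oligodendrocytes stood at 0.118, 0, 0.165 and 0 CPM, and the low-UMI pool at 15.5, 1.69, 1.83 and 1.72 CPM, so ependymal Hp was above both in every library. The ependymal class had neutrophil markers at 211, 287, 328 and 270 CPM, against 241, 251, 329 and 273 CPM in microglia, where Hp stood at 1.19, 0.0730, 0.593 and 0.0682 CPM, and hepatocyte markers at 9.05, 21.0, 10.3 and 21.3 CPM. Neutrophil-marker sums of this size were thus found with NaCl too, so they are not read as a measure of neutrophil RNA.

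Most Orm2 UMIs of the LPS libraries were in choroid plexus epithelium and ependymal cells. Choroid plexus epithelium, which makes cerebrospinal fluid, held 92 UMIs in 40 of 1131 cells in APOE4 LPS (15.6 CPM) and 16 UMIs in 7 of 531 cells in APOE3 LPS (3.58 CPM), against 0 in both NaCl libraries. This is at least 28.0-fold higher with LPS in APOE4 and at least 6.02-fold higher in APOE3, and APOE4 LPS was 4.35-fold above APOE3 LPS (2.54 to 7.92). Ependymal cells held 48 UMIs in 22 of 674 cells in APOE4 LPS (18.9 CPM), against 0, 3 and 3 UMIs in APOE4 NaCl, APOE3 LPS and APOE3 NaCl. The choroid level in APOE4 LPS was 499% (318 to 810) of the low-UMI pool's and the ependymal level 605% (366 to 1024). Hepatocyte markers in choroid plexus stood at 8.63, 15.96, 12.8 and 18.4 CPM in APOE4 LPS, APOE4 NaCl, APOE3 LPS and APOE3 NaCl, lower with LPS than with NaCl in both genotypes. Cluster 4, an unnamed group of 17 cells of APOE4 LPS led by genes such as Fndc3c1 and Sprr1a, held 31 Orm2 UMIs in 8 cells. Clusters 6 and 13 held 19 and 13 of the 214 Orm2 UMIs of APOE4 LPS. Microglia held 2 of 214 in APOE4 LPS, 1 of 1 in APOE4 NaCl, 9 of 29 in APOE3 LPS and 4 of 7 in APOE3 NaCl, at 0.281 CPM or less. Neutrophils held 0 Orm2 UMIs in all libraries, which allows up to 19.0 CPM in APOE4 LPS and 6.51 CPM in APOE3 LPS as the upper 95% bound.

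Orm1 lay elsewhere. In APOE3 LPS 87.8% of its 90 UMIs were in neutrophils, at 139 CPM (79 UMIs), and in APOE4 LPS neutrophils held 66.9 CPM (13 UMIs), a ratio of 0.480 (0.245 to 0.869). In APOE4 LPS cluster 13 held 28.5% of its UMIs, cluster 6 22.3%, ependymal cells 13.5% and choroid plexus 11.4%. Ependymal cells had 26 UMIs (10.2 CPM) and choroid plexus 22 (3.72 CPM, 2.33 to 5.64), against 0 in APOE4 NaCl, or at least 4.22-fold and 6.69-fold higher. Of the 26 ependymal UMIs, 10 were in 1 cell. Also in APOE4 LPS, the low-UMI pool stood at 1.62 CPM (0.864 to 2.78), cluster 6 at 3.18 CPM and red blood cells at 3.00 CPM (1.21 to 6.18). The Orm1 level of choroid plexus was thus not set apart from those of cluster 6 and red blood cells. The Orm1 and Orm2 transcripts were 90.97% identical over 775 aligned bases, with identical runs of up to 141 bases, so that a read could be given to either gene, and the split between the 2 is uncertain. That neutrophils held Orm1 with no Orm2 UMI while choroid plexus held more Orm2 than Orm1 is what the deposited assignment gives.

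**Figure D5:**
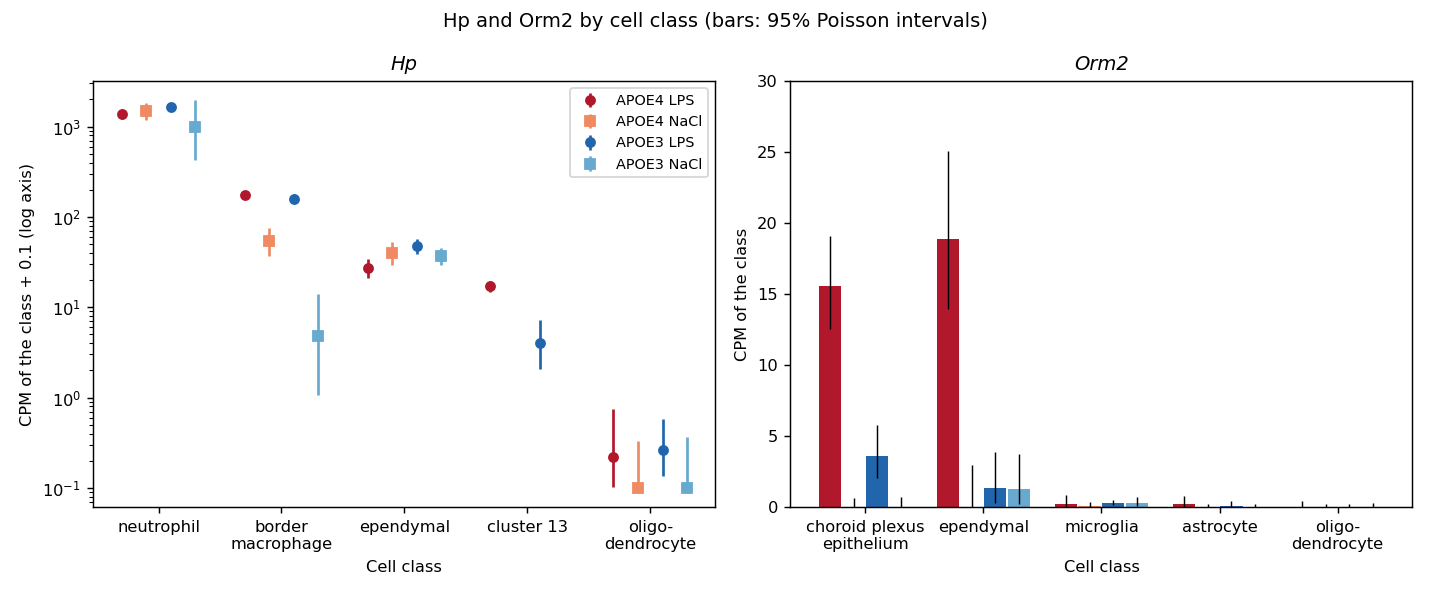
Hp (left, points, CPM + 0.1 on a log axis) and Orm2 (right, bars, CPM) by cell class in the 4 libraries, with exact 95% counting intervals. Hp in ependymal cells lies between 27.2 and 47.4 CPM in all 4 libraries, while Orm2 in choroid plexus is at 15.6 and 3.58 CPM in APOE4 LPS and APOE3 LPS and 0 with NaCl.

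Class by class, most of the measured members were at least 2-fold higher with LPS. In APOE4, 5 of 5 measured genes were at least 2-fold higher with LPS in border-associated macrophages (16.8% of genes), in microglia (6.56%) and in endothelial cells (17.7%), 4 of 4 in astrocytes (7.59%) 6 of 6 in choroid plexus, where 35.3% of genes were and the median gene lay at 0.57 on the log2 scale, and 3 of 3 in fibroblasts (12.2%). In APOE3 the counts were 4 of 5 in border-associated macrophages (9.76%), 5 of 5 in microglia (5.68%), 3 of 3 in endothelial cells (8.06%), 3 of 3 in astrocytes (4.28%), 4 of 4 in choroid plexus (10.7%) and 1 of 2 in fibroblasts (6.09%). Ependymal cells gave 6 of 7 in APOE4 (13.7%) and 1 of 2 in APOE3 (4.0%), and Hp was the gene not called there in both. Endothelial cells, microglia and oligodendrocytes of the LPS and NaCl libraries lay mostly in different clusters of their class (3 and 7 for endothelial cells, 14 and 15 against 17 and 18 for microglia, 0 and 24 for oligodendrocytes). Levels in the less abundant classes rest on few UMIs, and many of them fall in classes with foreign markers as given above.

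Genes related by function moved in part. Among all kept cells in APOE4, 3 of 4 other serum amyloid and orosomucoid genes were measured and all 3 were at least 2-fold higher with LPS: Saa1, with 1172 UMIs in APOE4 LPS and 24 in APOE4 NaCl (37.7-fold), Orm3, with 57 and 4 (11.01-fold), and Saa2, with 169 and 29 (4.50-fold). In APOE3 2 were measured and both were higher, Saa1 at 25.5-fold and Saa2 at 3.66-fold. Of 22 other acute-phase genes, 15 of 17 measured were higher in APOE4, with a median of 2.36 on the log2 scale, and 12 of 18 in APOE3, with a median of 1.13 and 1 lower; at least 2-fold lower were 10.1% of all genes in APOE4 and 8.24% in APOE3. Lcn2, the iron-carrier binding protein of neutrophils and astrocytes, was at 117181 and 532 UMIs in APOE4 LPS and APOE4 NaCl (170-fold) and at 84682 and 60 UMIs in APOE3 LPS and APOE3 NaCl (952-fold). Serpina3m, a protease inhibitor, was 261-fold higher in APOE4, from 338 UMIs against 1, and 47.6-fold higher in APOE3.

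The S100 and WAP relatives moved in part. Of 9 other S100 genes measured, 3 were at least 2-fold higher in APOE4 (S100a10 at 2.73-fold, S100a4 at 2.30-fold and S100a11 at 2.24-fold) and 1 was lower, and in APOE3 0 were higher and 1 was lower. Among all measured genes 7.4% were at least 2-fold higher and 10.1% lower in APOE4, and 5.94% and 8.24% in APOE3. Of 6 other WAP-domain genes measured, 2 were higher in each genotype. Slpi, an inhibitor of neutrophil elastase, was 5.13-fold higher in APOE4 and 6.47-fold in APOE3, and Wfdc17 was 10.9-fold and 3.43-fold higher. In APOE3 the other S100 genes thus had folds under that of S100a8, while in APOE4 S100a10 stood above S100a8 and S100a9, and Wfdc17 above Wfdc21.

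Inducers and receptors of these proteins were higher in part. Of 16 inducers and transcription factors of the acute phase, 13 were at least 2-fold higher in APOE4 and 8 in APOE3, among them Il1b (4.80-fold and 11.7-fold), Osm (9.51-fold and 7.03-fold) and Socs3 (5.61-fold and 4.61-fold). The share of all measured genes at least 2-fold higher was 7.4% in APOE4 and 5.94% in APOE3, and 10.1% were lower in APOE4. Of 13 receptor and clearance genes, 5 were higher in APOE4 and 4 in APOE3. Fpr2, a formyl peptide receptor that also binds serum amyloid A, was 34.1-fold higher in APOE4 and 79.96-fold in APOE3, Tlr2 4.56-fold and 5.65-fold, and Cd14 4.58-fold and 4.47-fold. Of 8 neutrophil granule genes, 2 were higher and 4 lower in APOE4, and all 6 measured were higher in APOE3, with Ngp at 2437 UMIs in APOE3 LPS and 2 in APOE3 NaCl. Between APOE4 NaCl and APOE3 NaCl all 8 granule genes were higher in APOE4, where 2.44% of all measured genes were at least 2-fold higher. Those libraries held 14 and 4 neutrophils. The granule genes were counted in kept cells only, without the barcode of APOE3 NaCl that held 1343 S100a8 UMIs and was removed as a doublet. Their contrasts with APOE3 NaCl carry this limit, and they were not counted over all barcodes.

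The pattern of each gene over 62 combinations of library and class with at least 20 cells was compared with that of all other genes, by Pearson's r of log2(CPM + 1), as a description in which points share libraries and depth. The genes most like S100a8 were Wfdc21 (r = 0.93), S100a9 (0.90), Trem1 (0.89), Fpr2 (0.89) and Mcemp1 (0.89). Those most like Saa3 were Lcn2 (0.89), Cd300lf (0.87), Msr1 (0.86), Marco (0.83) and Fcgr4 (0.82). Those most like Hp were Gm31814 (0.91), Padi4 (0.86), Ifitm6 (0.84), Fpr1 (0.83) and Chil3 (0.82). Among the 7 genes themselves r was 0.77 between Saa3 and S100a8, 0.58 between Saa3 and S100a9 and 0.87 between Orm1 and S100a9. Orm2 was the least alike, at 0.07 to 0.36 with the others.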

How the data were processed

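The deposited matrices hold whole-number counts of UMIs per gene and barcode, produced by the authors' run of Cell Ranger 7.0.1, per the file headers, or 7.0 on build mm10, per the submitters' processing notes. The annotation release is not given in the sources used here. Libraries used 10x 3′ v3.1 reagents and NovaSeq sequencing, per the labels' protocols, and groups came from the sample titles.

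A barcode was kept if it had 500 or more genes, 1000 or more UMIs and a mitochondrial share of up to 20% (scanpy 1.11.5). Scrublet, at an expected 0.8% doublets per 1000 barcodes, removed 1039 barcodes from APOE4 NaCl (7.95%), 1295 from APOE3 LPS (8.60%) and 1391 from APOE3 NaCl (9.66%), and none from APOE4 LPS, so comparisons with that library carry this difference. Leiden clustering (igraph 0.11.9) at resolution 1, on 15 neighbours over 30 principal components of the 2000 most variable genes less the 7 members (1993), gave 31 clusters, without batch integration. A cluster took a name from at least 3 markers that were 2-fold above the rest and in at least 25% of its cells, and only if its 10 leading genes favoured no other type.

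For each class of a library, the UMIs of a gene were added up and divided by the class total. Intervals are exact Poisson for levels, Clopper-Pearson for shares and conditional binomial for ratios, at 95% (scipy 1.17.1), and cover counting error only. The floor for a gene at 0 was 3 counts per library. A gene was measured from 10 UMIs in 1 of the 2 libraries and called at 2-fold in CPM. Shares of cells were thinned to 1000 UMIs per cell, leaving out shallower cells. With 1 library per group no test exists. The steps were tested on simulated counts. From each of 7 lists at most 4 genes with the highest LPS to NaCl ratio are named, and for likeness the 5 genes of highest r. The members and the lists were chosen with earlier results of these data known. Alternatives were other UMI, gene and mitochondrial filters, doublets kept, Leiden resolution 2, members among the variable genes, another pool limit, minimum and pseudocount, and cells without neutrophil markers. Columns of other samples numbered 0.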

Additional observations from a re-analysis of the deposited data

How the results depend on the processing

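Of the log2 ratios of single genes under other settings, 580 were classed as the same, 133 as moved and 5 as reversed. A value classed as the same was not always within the counting interval. S100a8 over all kept cells of the APOE3 pair was so classed at 4.84 with a pseudocount of 10 CPM, against 5.84 as given. Resolution 2 or members among the variable genes cannot change a ratio over all kept cells, so the 580 include values that could not move. S100a9 between APOE4 LPS and APOE3 LPS border-associated macrophages (2.48 as given) turned to -1.58 with doublets kept, -0.71 with at least 200 genes and 500 UMIs, -1.68 with at most 10% mitochondrial UMIs and -1.90 at Leiden resolution 2, and Hp in microglia (0.46 as given) turned to -0.060 with the members among the variable genes.
Of the counts of members at least 2-fold higher, 157 held within 1.5 times and 29 did not. APOE4 LPS to NaCl: 3 in border-associated macrophages with doublets kept, with at least 200 genes and 500 UMIs, with at most 10% mitochondrial UMIs or at resolution 2, and 3 in endothelial cells and 2 in astrocytes when measured from 50 UMIs. APOE3 LPS to NaCl: 3 in microglia without cells holding neutrophil-marker UMIs or from 50 UMIs. APOE4 LPS to APOE3 LPS: 1 in border-associated macrophages at resolution 2, 6 in microglia with doublets kept or the lower filters, 1 with the members among the variable genes, 2 in endothelial cells from 50 UMIs, and in astrocytes 4 with doublets kept, at 10% mitochondrial UMIs or at resolution 2 and 1 from 50 UMIs. APOE4 NaCl to APOE3 NaCl: 0 in border-associated macrophages with doublets kept, the lower filters, 10% mitochondrial UMIs, resolution 2 or 50 UMIs, in microglia 0 without neutrophil-marker cells or from 50 UMIs and 2 with no low-count filter, 1 in endothelial cells with no low-count filter, and in astrocytes 1 at 2000 UMIs per barcode or with the lower filters and 0 from 50 UMIs. The causes were not tested. The neutrophil comparison gave no value with doublets kept, at 10% mitochondrial UMIs or at resolution 2.
With doublets kept, the log2 ratio of S100a8 between APOE3 LPS and APOE3 NaCl over all cells was 4.25 (5.84 in the analysis as given), with at least 2000 UMIs per barcode 7.25 and with the lower filters 6.40. No paired analysis was possible because each group is 1 library. Depth limits the NaCl values: Orm1, Orm2 and Saa3 rest there on 0 to 27 UMIs per library, and the neutrophil level of APOE3 NaCl on 4 cells.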
